A study of Hydrangea macrophylla with 27 samples.

Results

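PHOSPHATE-INDUCED 1 (PHI-1) was followed through 27 RNA libraries of whole stems of Hydrangea macrophylla, an ornamental shrub. Members were the assembled transcript clusters whose best Swiss-Prot match was exactly the tobacco protein PHI-1 and whose expected counts summed to at least 100 over the libraries. All 5 clusters with this match, among 142016 clusters in all, met the count minimum, with totals from 382 to 58015.72, so the minimum removed none. The groups were stems of wild-type plants of the cultivar 'Wudu' taken 15 min before treatment, stems bent 12 times within 1 h of a single morning and taken 1, 3, 24 or 72 h later, and unbent stems taken at the same times. Bending was done by a plastic curtain that moved back and forth and pushed each stem to an angle of 30° from the vertical for about 30 s. All plants had 16 h of light per day. Every group held 3 biological replicates, the plants before treatment and the unbent plants served as controls, and the question was how stem transcripts respond over time to mechanical stimulation. The labels do not state how many plants made up a library, nor from which moment of the bending hour the later times were counted.

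PHI-1 was first described in cultured tobacco cells, as a transcript that appears when phosphate is given back to starved cells as they resume growth. It belongs to the EXORDIUM family of secreted plant proteins that are found with the cell wall. In Arabidopsis, EXORDIUM promotes cell expansion and is induced by brassinosteroids, the steroid hormones of plant growth. Whole stem contains dividing, expanding and wall-forming tissues side by side, and in such bulk samples fewer cells of a type and less RNA per cell cannot be told apart.

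The 5 clusters differed in length and in how well they matched. Cluster-9242.44628 was 1587 bases long with a Swiss-Prot alignment score of 1300.0, Cluster-9242.7841 was 1270 bases long with a score of 1181, and Cluster-25732.0 was 1289 bases long with a score of 895. The other two were short, with 498 bases and a score of 497 for Cluster-9242.44627 and 565 bases and a score of 395 for Cluster-9242.24118. The best nucleotide match of all 5 was a plant gene named EXORDIUM-like, and the 5 matches were 5 different database entries. The best match in the NCBI protein database was also EXORDIUM-like for 4 of them, while that of Cluster-9242.24118 was a cysteine proteinase. Expected counts were fractional in 7 libraries for Cluster-9242.44628 and in 5 libraries for Cluster-9242.44627, and in none for the other three. RSEM gives a fractional count where reads fit more than 1 cluster. These names come from matches to other plants, and the clusters may be paralogs or fragments of 1 transcript.

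The libraries held 14.4 M to 23.1 M expected counts. Ribosomal RNA clusters took 2.68% to 8.45% of the counts and clusters matching Hydrangea ringspot virus 2.32% to 6.88%. All 16 xylem, 8 phloem and 7 cambium marker clusters had counts, as did 5 epidermis clusters, and the only matching root marker, the nitrate transporter NRT2.1, averaged at most 1.17 CPM in any group. Marker sums and limits for a count of 0 are CPM of all counts, without TMM factors. Of the 142016 clusters, 52918, among them all 5 PHI-1 clusters, passed the filter on low counts and were tested together with edgeR's quasi-likelihood test. Adjusted p-values are Benjamini-Hochberg values over these clusters within a comparison, with a threshold of 0.05. CPM below are expected counts scaled to library size with edgeR's TMM factors. The error of a mean is the SD of 3 libraries, and that of a log2 value is the standard error of the fit.

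In stems bent 1 h earlier, 4 of the 5 PHI-1 clusters stood far above unbent stems. The 3 bent libraries held 1146, 678 and 435 CPM of Cluster-9242.44628, and the unbent libraries of the same time held 131, 144 and 166 CPM. The lowest bent library was above the highest unbent one. The means were 753 ± 361 and 147 ± 17.3 CPM, a log2 fold change of 2.35 ± 0.34. PHI-1 was chosen by this 1 h difference of its most abundant cluster, so the difference is a description and has no test here. In the deposited FPKM, the cluster reached 543 ± 252 FPKM in bent stems, rank 184 among the 52918 clusters by mean FPKM, against rank 854 and 111 ± 12.7 FPKM in unbent stems.

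The short Cluster-9242.44627 held 115, 82.9 and 44.9 CPM in bent stems at 1 h against 17.0, 18.4 and 21.9 CPM in unbent stems. It rose by 2.08 ± 0.31 on the log2 scale (edgeR adjusted p of 0.00072). Cluster-9242.7841 held 127, 62.9 and 30.9 CPM against 7.69, 9.05 and 12.0 CPM. It rose by 2.93 ± 0.47 (edgeR adjusted p of 0.00172). Cluster-9242.24118 held 35.8, 14.6 and 10.4 CPM against 2.28, 1.81 and 3.78 CPM. It rose by 2.93 ± 0.47 (edgeR adjusted p of 0.00117). All 3 were called higher, beside 1.11% of all clusters tested at this time. In each of the 3, all bent libraries were above all unbent ones. How many of all clusters were separated in this way was not counted, here or in any other comparison. PHI-1 was chosen by the 1 h rise of Cluster-9242.44628. Over the 27 libraries the 3 correlated with that cluster at a Pearson's r of log2 CPM of 0.982, 0.957 and 0.948. Their p-values at 1 h are therefore not independent of that choice. The fifth, Cluster-25732.0, held 0.629, 0.491 and 0.411 CPM in bent and 1.25, 0.776 and 0.282 CPM in unbent stems, which overlapped, with a log2 fold change of -0.57 ± 0.55 (edgeR adjusted p of 0.824).

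The size of the 1 h rise varied between the bent libraries in the same way for the 4 clusters. Replicate 1 of the bent stems was the highest and replicate 3 the lowest of the group in each of the 4, and the SD of the group reached 48.8 CPM beside a mean of 73.5 CPM for Cluster-9242.7841. Without replicate 1 the log2 fold changes were the lowest of those with any library of the comparison left out, at 1.92 for Cluster-9242.44628, 1.74 for Cluster-9242.44627, 2.28 for Cluster-9242.7841 and 2.24 for Cluster-9242.24118. The calls of the last 3, which were tested, did not change. In a fit of only the 6 libraries compared, the fold changes were 2.35, 2.07, 2.92 and 2.91 and none of the 3 tested clusters passed (edgeR adjusted p of 0.149 for Cluster-9242.44627, 0.191 for Cluster-9242.7841 and 0.203 for Cluster-9242.24118). At 1 h, rRNA took 3.31% to 6.96% of the counts of bent libraries and 2.68% to 3.21% of those of unbent libraries. The 7 cambium marker clusters summed to 240.5 to 281.3 CPM in the bent libraries and to 286.9 to 321.8 CPM in the unbent ones, without overlap, while the summed xylem, phloem and epidermis markers overlapped. Their part in the rise was not tested.

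**Figure D1:**
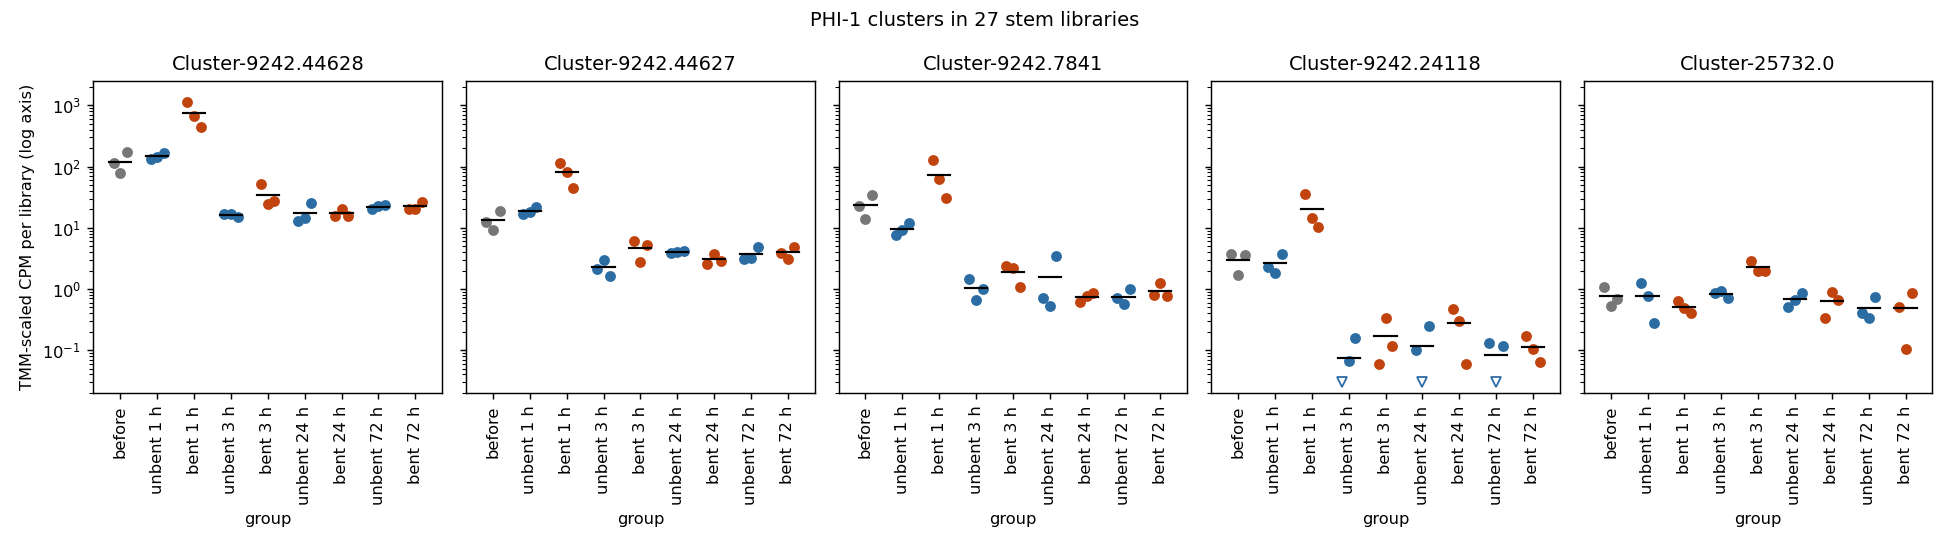
TMM-scaled CPM (log axis) of the 5 PHI-1 clusters in each of the 27 libraries by group, with black bars at the group means, grey points before bending, blue points for unbent and red points for bent stems. Open triangles at the bottom mark the 3 libraries with 0 counts of Cluster-9242.24118. In 4 panels bent stems at 1 h are the highest group and all later groups are low, and in the panel of Cluster-25732.0 bent stems at 3 h are the highest.

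At 3 h the most abundant cluster was still above unbent stems, on a much lower level. Cluster-9242.44628 held 51.2, 24.1 and 27.8 CPM in bent and 17.0, 17.0 and 14.7 CPM in unbent stems. The libraries did not overlap, with replicate 1 of the bent stems again the highest. The log2 fold change of 1.08 ± 0.37 did not pass in edgeR (adjusted p of 0.112), and it passed in DESeq2 at 1.08 (adjusted p of 0.025). Without replicate 1 of the bent stems the value was 0.67. Cluster-9242.44627 held 6.06, 2.71 and 5.25 CPM in bent and 2.10, 3.03 and 1.66 CPM in unbent stems, which overlapped, and its log2 fold change of 1.06 ± 0.43 also missed the threshold (edgeR adjusted p of 0.201) and passed in DESeq2 (adjusted p of 0.0454).

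Cluster-25732.0, which was low throughout, had its highest level in these stems. It held 2.88, 1.94 and 1.95 CPM in bent and 0.851, 0.921 and 0.725 CPM in unbent stems at 3 h, from 49, 35 and 33 against 15, 14 and 14 counts. All bent libraries were above all unbent libraries, and no library of the other groups exceeded 1.25 CPM. The number of all clusters separated in this way at 3 h was not counted. The log2 fold change was 1.43 ± 0.48 and missed the threshold (edgeR adjusted p of 0.0752). It passed in limma-voom at 1.40 (adjusted p of 0.0264) and in a fit of only the 6 libraries compared at 1.42 (adjusted p of 0.0175). The difference between its bending effects at 3 h and 1 h was 2.00 ± 0.73 on the log2 scale. With an unadjusted p of 0.00864 and an edgeR adjusted p of 0.275, it did not pass. Nor did those of Cluster-9242.44627, Cluster-9242.7841 and Cluster-9242.24118, where 0.841% of all clusters were called. That of Cluster-9242.44628 contains the 1 h difference by which PHI-1 was chosen and has no test here. This comparison of times was added after the values had been seen.

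None of the 5 clusters passed in edgeR at 3 h, where 5.08% of all clusters tested were called, while 3 of the 5, and 8375 of all 52918 clusters, had an unadjusted p under 0.05. DESeq2 called 2 of the 5 and 3180 clusters in all, and limma-voom called 1 of the 5 and 2554 in all. The summed cambium markers were at 264.4 to 310.1 CPM in bent and 321.9 to 343.8 CPM in unbent libraries at 3 h, and the epidermis markers at 31.95 to 38.72 and 40.52 to 44.46 CPM. Clusters matching the virus took 2.32% to 3.35% of the counts of bent and 3.74% to 5.82% of those of unbent libraries. None of these 3 overlapped, and their part in the 3 h values was not tested. The log2 fold changes of the other two at 3 h were 0.85 ± 0.78 for Cluster-9242.7841, with means of 1.90 ± 0.729 and 1.04 ± 0.411 CPM, and 1.10 ± 1.33 for Cluster-9242.24118, which had 1, 6 and 2 counts in bent and 0, 1 and 3 counts in unbent stems. At this depth the bending effect on Cluster-9242.24118 was not detectable at 3 h or later.

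At 24 and 72 h no difference between bent and unbent stems passed. Cluster-9242.44628 held 15.8, 20.4 and 15.6 CPM in bent and 13.1, 14.2 and 25.2 CPM in unbent stems at 24 h. At 72 h it held 20.1, 20.6 and 26.7 CPM in bent and 20.3, 22.6 and 23.5 CPM in unbent stems. The ranges of this cluster overlapped at both times, and its log2 fold changes were -0.01 ± 0.37 and 0.02 ± 0.36. Cluster-9242.44627 held 2.59, 3.77 and 2.90 CPM in bent and 3.83, 3.95 and 4.11 CPM in unbent stems at 24 h, so all bent libraries were below all unbent ones, with a log2 fold change of -0.37 ± 0.41 (edgeR adjusted p of 0.959). The other members overlapped at both times, as did this one at 72 h. Over the 5 clusters the log2 fold changes ran from -0.98 to 1.39 at 24 h and from -0.03 to 0.46 at 72 h, with the extremes in the low Cluster-9242.7841 and Cluster-9242.24118 at 24 h. None passed in edgeR, DESeq2 or limma-voom and none had an unadjusted p under 0.05. Of all clusters tested, 0.0246% passed in edgeR at 24 h and 0% at 72 h. An unadjusted p under 0.05 was found for 3269 clusters at 24 h and for 2883 at 72 h. DESeq2 called 54 at 24 h and 7 at 72 h.

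**Figure D2:**
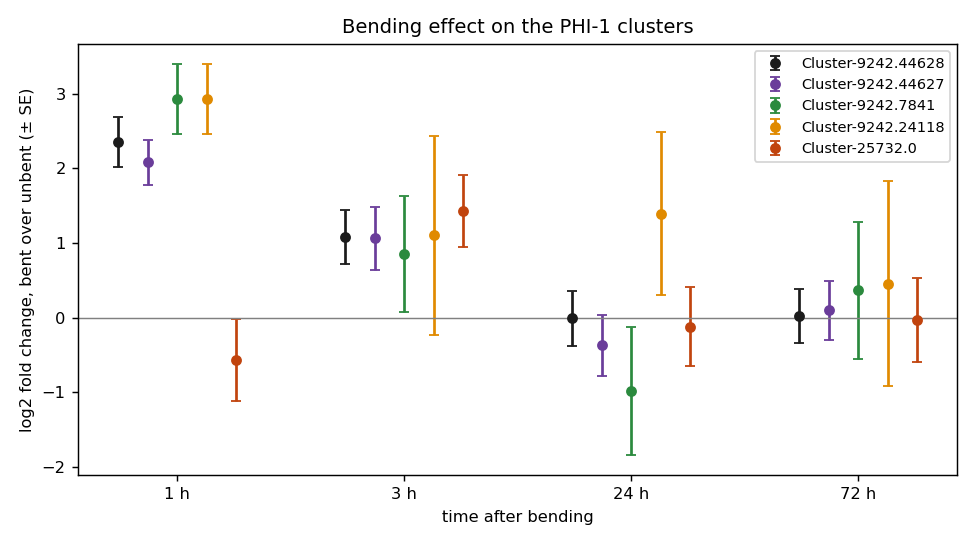
Log2 fold change of bent over unbent stems for each PHI-1 cluster at 1, 3, 24 and 72 h, with bars of 1 standard error from edgeR (3 libraries per group). At 1 h, 4 clusters lie between 2.08 and 2.93 and Cluster-25732.0 lies at -0.57, while at 72 h all 5 lie between -0.03 and 0.46.

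Without any bending, the same 4 clusters moved over the sampling times. Before treatment, Cluster-9242.44628 held 113, 78.9 and 172 CPM, and the unbent stems of the 1 h time point overlapped with this range at a log2 fold change of 0.28 ± 0.33 (edgeR adjusted p of 0.732). By 3 h its unbent level was 7.45 times lower than before treatment, at 16.2 ± 1.30 against 121 ± 46.9 CPM. The log2 fold change of -2.90 ± 0.37 passed (edgeR adjusted p of 1.35e-05), and no library of the groups overlapped. It stayed low in unbent stems, with -2.81 ± 0.37 at 24 h (edgeR adjusted p of 7.74e-05) and -2.45 ± 0.36 at 72 h (edgeR adjusted p of 0.000178). From 1 h to 3 h the unbent stems fell by 3.18 on the log2 scale, with a standard error of 0.37 (edgeR adjusted p of 4.34e-06), and 4 of the 5 clusters were called lower there beside 6.62% of all clusters (12.8% in either direction). Limma-voom called 2 of these 4 and did not call Cluster-9242.7841 (adjusted p of 0.155) or Cluster-9242.24118 (adjusted p of 0.226). It called 6310 of all clusters in either direction. Between 3 and 24 h its value was 0.10 ± 0.38. None of the 5 passed between 3 and 24 h in edgeR, DESeq2 or limma-voom, and 10.6% of all clusters were called in edgeR. None had an unadjusted p under 0.05, which 11234 of all 52918 clusters had. The unbent libraries at 1 h are also 1 side of the difference by which PHI-1 was chosen. Tests that use them, here and in the F test below, are not independent of that choice.

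The same 4 of the 5 clusters fell from before treatment to unbent stems at 3, 24 and 72 h, where 5.88%, 3.75% and 4.76% of all clusters tested were called lower. Cluster-9242.44627 fell from 13.6 ± 5.06 CPM to 2.26 ± 0.70, 3.96 ± 0.137 and 3.70 ± 0.94 CPM. Cluster-9242.7841 fell from 23.8 ± 10.3 CPM to 1.04 ± 0.411, 1.55 ± 1.63 and 0.752 ± 0.209 CPM, and at 72 h its log2 fold change was -5.00 ± 0.63 (edgeR adjusted p of 4.46e-05). Cluster-9242.24118 fell from 3.00 ± 1.15 CPM, with 56, 26 and 68 counts, to at most 4 counts in any unbent library from 3 h on. A count of 0, which it had in 1 unbent library each at 3, 24 and 72 h, allows up to 0.142 to 0.167 CPM in the 3 libraries (3 counts), and these limits cover counting error only. In limma-voom, Cluster-9242.24118 did not pass at 3, 24 or 72 h and Cluster-9242.44627 did not pass at 24 h, with log2 fold changes of -5.16, -5.05, -5.18 and -1.75. Cluster-9242.7841 did not pass at 24 h in a fit of the 6 libraries compared, at -4.03.

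Cluster-9242.7841 differed from the others between the samples before treatment and 1 h. It held 22.7, 14.1 and 34.5 CPM before treatment and 7.69, 9.05 and 12.0 CPM in unbent stems at 1 h, so these libraries did not overlap, but the log2 fold change of -1.31 ± 0.47 missed the threshold (edgeR adjusted p of 0.0901). None of the 5 clusters passed in this comparison in edgeR, DESeq2 or limma-voom, and 3.85% of all clusters were called lower. An unadjusted p under 0.05 was found for 1 of the 5 and for 10758 of all 52918 clusters. Bent stems at 1 h overlapped with the samples before treatment in this cluster alone of the 4, as the lowest bent library held 30.9 CPM. For Cluster-9242.44628, Cluster-9242.44627 and Cluster-9242.24118 the bent stems at 1 h had means 6.22, 5.96 and 6.76 times those before treatment, without overlap. These ratios to the samples before treatment were not tested.

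Cluster-25732.0 had no such course. Its means lay between 0.493 and 0.832 CPM in the samples before treatment and all unbent groups, and an F test over these 5 groups gave an edgeR adjusted p of 0.778, while those of the other four were 1.64e-07 to 2.42e-06, where 28.8% of all clusters passed. Among the samples before treatment, replicate 2 had the lowest level of every PHI-1 cluster and also the highest rRNA share, 8.45%, and replicate 3 was the highest for Cluster-9242.44628, Cluster-9242.44627 and Cluster-9242.7841. The part of the rRNA share in these levels was not tested. The cambium marker clusters summed to 310.6 to 352.7 CPM before treatment. In unbent stems they summed to 321.9 to 343.8 CPM at 3 h, within that range, to 381.6 to 411.0 CPM at 24 h and to 409.1 to 438.5 CPM at 72 h. Their part in the lower PHI-1 levels at 24 and 72 h was not tested.

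The 9 groups were set in order of mean CPM, and each was compared for overlap with the next group only. For Cluster-9242.44628 and Cluster-9242.44627, bent stems at 1 h were highest and did not overlap with the next group, unbent stems at 1 h and the samples before treatment overlapped with each other and were above the rest, and each of the remaining 6 groups overlapped with its neighbour. For Cluster-9242.24118 the samples before treatment and the unbent stems at 1 h exchanged places, and they overlapped too. For Cluster-9242.7841 the order was bent stems at 1 h, samples before treatment and unbent stems at 1 h, of which the upper pair overlapped and the lower pair did not. For Cluster-25732.0 only bent stems at 3 h stood apart from the next group. Groups further apart in the order did not all overlap. For Cluster-9242.44628, unbent stems at 72 h, with 20.3 to 23.5 CPM, lay above unbent stems at 3 h, with 14.7 to 17.0 CPM.

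The 4 clusters also kept different proportions to each other, compared as deposited FPKM. These values were above CPM divided by the stated lengths, most of all for the short clusters. In replicate 1 before treatment, the 498 bases of Cluster-9242.44627 had 12.5 CPM and 53.6 FPKM. The shares of the short clusters, and their part in the FPKM sum, are thus higher than the stated lengths would give. Cluster-9242.44627 was at 63.7% ± 1.14 of Cluster-9242.44628 before treatment, at 73.1% ± 1.47 in unbent and 61.0% ± 6.23 in bent stems at 1 h. From 3 h on, where both were low, its mean share lay between 77.9% and 136.8%, with an SD of up to 39.6. Cluster-9242.7841 was at 25.5% ± 1.74 of Cluster-9242.44628 before treatment, at 8.48% ± 0.933 in unbent and 12.0% ± 2.62 in bent stems at 1 h, and the samples before treatment did not overlap with either group. Cluster-9242.24118 was at 11.1% ± 3.17, 7.73% ± 2.28 and 11.2% ± 2.29 in these groups. Summed over the 5 clusters, FPKM came to 186 ± 77.4 before treatment, and to 212 ± 28.1 in unbent and 1006 ± 476 in bent stems at 1 h. In unbent stems at 3 h the sum was 23.7 ± 3.64. Where clusters are fragments of 1 transcript, this sum counts that transcript more than once. Pearson's r of log2 CPM over the 27 libraries was 0.919 to 0.982 between the 4 clusters and -0.135 to -0.02 between each of them and Cluster-25732.0. These values describe libraries of 9 groups and are not independent points.

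**Figure D3:**
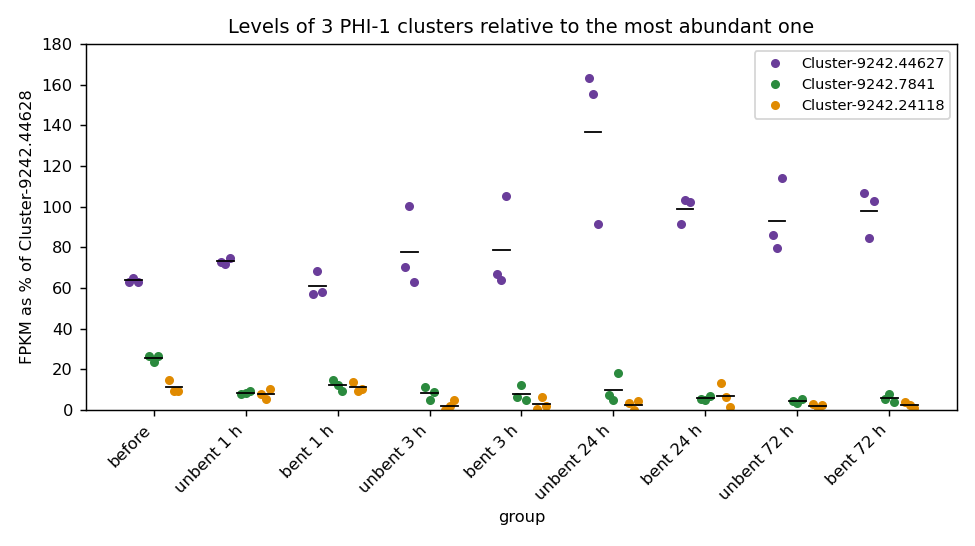
FPKM of Cluster-9242.44627, Cluster-9242.7841 and Cluster-9242.24118 as a percentage of Cluster-9242.44628 in the same library, by group, with 3 points per group and black bars at the means. Cluster-9242.7841 stands at 25.5% before treatment and at 8.48% and 12.0% in unbent and bent stems at 1 h.

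The EXORDIUM-like relatives of PHI-1 had 8 further clusters, all tested, which matched Arabidopsis EXL2, EXL3, EXL5 and EXL7. Of these 8, 1 was higher and 0 were lower in bent stems at 1 h, where 1.93% of all clusters were called in either direction, and 2 were higher and 2 lower at 3 h, where 5.08% were called. The median log2 fold change of the 8 was -0.06 at 1 h and -0.10 at 3 h, beside 0.00 and 0.01 over all clusters. EXL5 (Cluster-9242.55522) rose from 143 ± 11.0 to 291 ± 28.9 CPM at 1 h, by 1.03 ± 0.16 (edgeR adjusted p of 0.00133), and from 45.8 ± 2.14 to 72.8 ± 10.7 CPM at 3 h. Its level before treatment, 21.0 FPKM, was below the 58.2 FPKM of unbent stems at 1 h, a rise of 1.48 ± 0.17 on the log2 scale (edgeR adjusted p of 2.38e-06). EXL2 (Cluster-9242.53842), the most abundant of the family by mean FPKM over all libraries (198 against 93.9 for Cluster-9242.44628), rose at 3 h from 374 ± 48.0 to 675 ± 72.3 CPM (edgeR adjusted p of 0.00379).

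The members that were lower in bent stems at 3 h were EXL7 (Cluster-9242.25805), with a log2 fold change of -0.50 ± 0.13, and an EXL3 cluster (Cluster-9242.55050), with -0.53 ± 0.14. The most abundant EXL3 cluster (Cluster-9242.55051) was at -0.21 ± 0.09 and did not pass. Across the 27 libraries the highest FPKM was 82.6 times the lowest for Cluster-9242.44628, 67.5 times for Cluster-9242.44627, 229.5 times for Cluster-9242.7841 and 27.0 times for Cluster-25732.0. Cluster-9242.24118 was listed at 0 in its lowest libraries and has no ratio. The ratios were 1.88 to 8.15 for the 8 EXORDIUM-like clusters. For Cluster-9242.44628, Cluster-9242.44627 and Cluster-9242.7841 the highest library was a bent one at 1 h. PHI-1 was chosen by a difference at that time, so their larger ratios partly follow from the choice. The lowest library held 11 counts of Cluster-9242.7841 and 2 counts of Cluster-25732.0, so these ratios are uncertain. No EXORDIUM-like cluster was called lower in unbent stems than before treatment at 1, 3, 24 or 72 h. Of all clusters, 3.85%, 5.88%, 3.75% and 4.76% were called lower, and with 8 clusters a count of 0 is near these shares. Called higher were 3, 2, 3 and 3 of the 8, where 10.3%, 14.1%, 8.4% and 10.3% of all clusters were called in either direction. With RLE size factors the count at 24 h was 2. These 4 comparisons share the libraries before treatment.

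**Figure D4:**
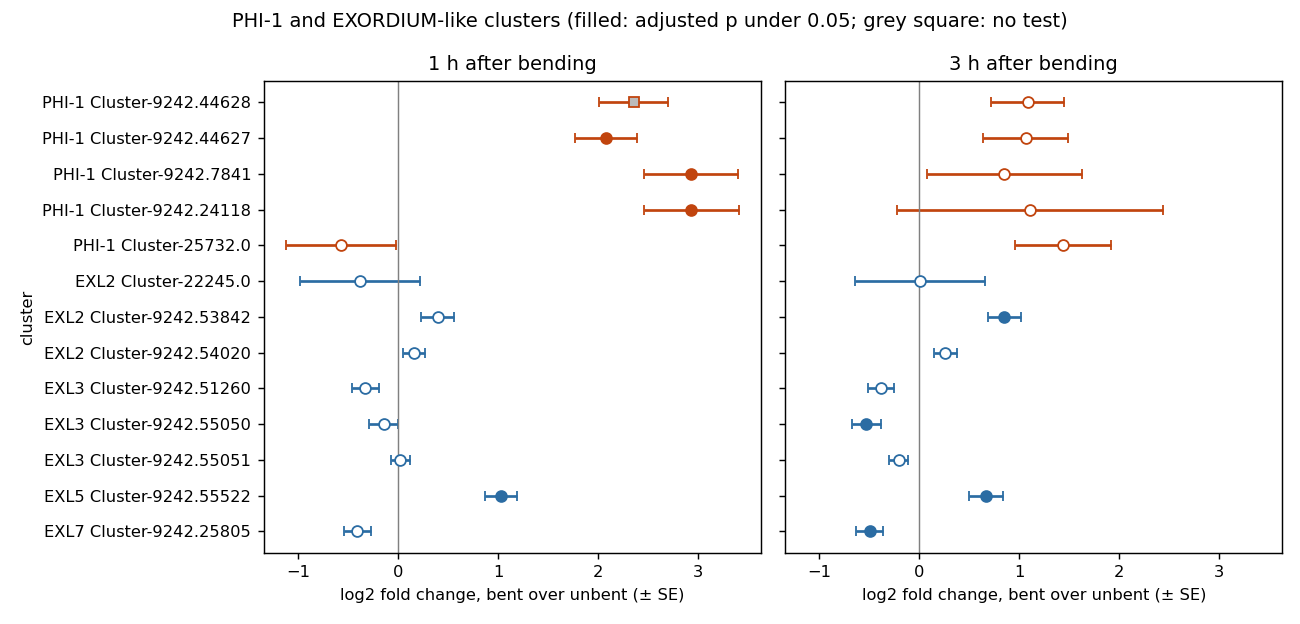
Log2 fold change of bent over unbent stems at 1 and 3 h for the 5 PHI-1 clusters (red) and the 8 EXORDIUM-like clusters (blue), with bars of 1 standard error. Filled circles passed an edgeR adjusted p of 0.05, and the grey square marks the cluster with no test at 1 h. At 1 h, 4 PHI-1 clusters lie at 2.08 or above and EXL5, the highest relative, at 1.03.

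Brassinosteroid genes, listed because EXORDIUM responds to this hormone in Arabidopsis, moved in both directions at 1 h. Of 72 tested clusters (80 listed), 2 rose and 2 fell at 1 h, or 5.56%, and 9 rose and 2 fell at 3 h, or 15.3%, beside 1.93% and 5.08% of all clusters. The list's median log2 fold changes were -0.01 and 0.06. BRH1, a RING finger protein of brassinosteroid responses, fell from 48.6 ± 1.50 to 26.3 ± 3.40 CPM at 1 h (edgeR adjusted p of 1.17e-08). CYP90B1, which catalyses an early step of brassinosteroid synthesis, also fell, from 5.65 ± 0.279 to 3.54 ± 0.30 CPM. BEH4, a relative of the hormone's transcription factors, rose by 0.58 ± 0.09, and the signalling kinase BSK7 (Cluster-9242.32560) by 0.51 ± 0.11. At 3 h the transcription factor BZR2 rose from 69.8 ± 7.19 to 107 ± 3.92 CPM (edgeR adjusted p of 6.87e-07), and CYP734A1, which inactivates brassinosteroids, fell from 37.5 ± 6.96 to 22.8 ± 1.76 CPM. A pair of BSK7 clusters (Cluster-9242.50059 and Cluster-9242.52093) rose by 0.60 ± 0.10 and 0.53 ± 0.09 at 3 h.

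Phosphate transport and starvation genes were listed because PHI-1 was named for its response to phosphate. Of 69 tested clusters (87 listed), 0 rose and 2 fell at 1 h, or 2.90%, and 2 rose and 6 fell at 3 h, or 11.6%, beside 1.93% and 5.08% of all clusters. The 1 h share is near that of all clusters. The list had median log2 fold changes of 0.02 and -0.04. The purple acid phosphatase PAP18 fell at both times, with log2 fold changes of -0.40 ± 0.10 and -0.44 ± 0.10, and an SPX domain membrane protein (At4g22990) had -0.29 ± 0.07 at 1 h. PHT1-7, a phosphate transporter, fell at 3 h from 19.4 ± 9.72 to 6.25 ± 0.662 CPM (edgeR adjusted p of 0.00353). UBC24, known in Arabidopsis as PHO2, a regulator that limits phosphate uptake, fell from 172 ± 12.0 to 136 ± 6.77 CPM, and PHO1-H5, a relative of the phosphate exporter PHO1, from 1.52 ± 0.215 to 0.462 ± 0.0617 CPM.

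The clusters whose course over the libraries was most like that of Cluster-9242.44628 were sought among 13104 clusters with a Swiss-Prot match and at least 10 CPM in some group, by Pearson's r of log2 CPM over the 27 libraries. The 10 highest lay between 0.969 and 0.982 and are a description, since the libraries fall into 9 groups and all share the same scaling. They were the transcription factors DOF3.1 (0.982) and GATA5 (0.976), an F-box protein (At1g70590, 0.976), the stress-associated zinc finger protein SAP4 (0.976), NHL13 (0.974), a CCCH zinc finger protein (Os05g0128200, 0.974), a protein phosphatase of the 2C type (At2g30020, 0.973), the kinase MAPKKK17 (0.971), the metalloproteinase 2MMP (0.971), and CML24 (0.969), a calcium-binding protein known in Arabidopsis as the touch gene TCH2. DOF3.1 had a mean of 23.4 CPM before treatment, 30.0 in unbent and 64.5 in bent stems at 1 h, and 8.68 and 11.1 in unbent and bent stems at 3 h. CML24 had 40.0, 49.6, 84.3, 8.05 and 12.4 CPM in the same groups. In all 10, as in Cluster-9242.44628, bent stems at 1 h were the highest group and the means from 3 h on were below those before treatment. This likeness largely follows from their choice by correlation over the same libraries.

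**Figure D5:**
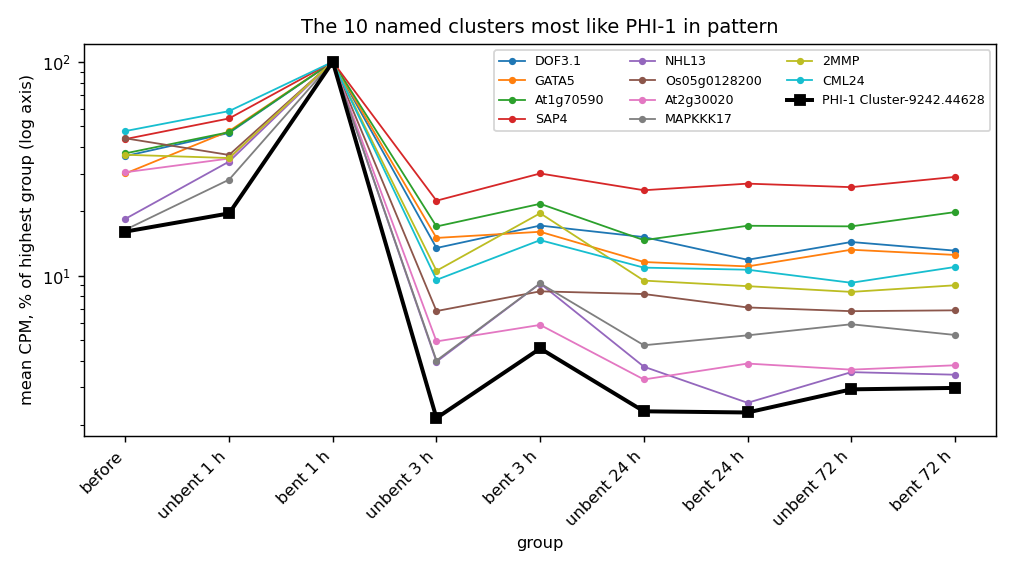
Mean CPM of each group as a percentage of the cluster's highest group (log axis) for Cluster-9242.44628 (black) and the 10 clusters with a Swiss-Prot match most like it in pattern. All peak in bent stems at 1 h, which largely follows from their choice by pattern. Cluster-9242.44628 has the lowest percentage of the 11 clusters in every other group. Its percentages are relative to bent stems at 1 h, and PHI-1 was chosen by its difference at that time. Its low percentages therefore partly follow from that choice.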

How the data were processed

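Per the labels, whole-stem RNA was enriched for poly(A) and sequenced as read pairs of 150 bases. The authors' deposited expected counts came from RSEM, whose version in the submitters' processing notes is 1.2.28. Of the values, 8.05% were not whole (tolerance 0.001), and all were rounded before testing. The authors' deposited FPKM values, which did not follow from CPM and the stated lengths alone, gave levels between clusters. After log2 with 0.1 or 1 added, they also gave an alternative test in limma. How the clusters were assembled is not stated. Cluster lengths and Swiss-Prot alignment scores came from the deposited annotation.

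The members and gene lists were chosen with earlier results of these data known. Clusters were filtered with filterByExpr, scaled by TMM and fitted with edgeR 4.0.16 (R 4.3.3), a robust quasi-likelihood fit of 9 group means over all 27 libraries with a common biological coefficient of variation of 0.158. The code was tested on simulated counts. Replicates differed beyond counting noise (chi-square per degree of freedom of 4.59 to 21.3), so none was counted as a repeat deposit. The named genes were every PHI-1 cluster, up to 4 called clusters per list and time by smallest p, and the 10 closest in pattern. The EXL3 cluster that did not pass was named after its values were seen. Clusters sharing a listed symbol but not its protein (4 lipases, 2 photolyases) were left out. Alternatives were RLE size factors, looser and stricter filters, DESeq2 1.42.0, limma-voom (limma 3.58.1), separate fits per comparison, a replicate block, FPKM, and leaving out each library. The depth of 14.4 M to 23.1 M counts limits what can be seen in the low clusters.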

Additional observations from a re-analysis of the deposited data

How the results depend on the processing

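Of the PHI-1 log2 fold changes recomputed with all libraries, 409 kept their direction and their side of the threshold, and no called value changed direction. Fitting only the groups compared ended the calls at 1 h of Cluster-9242.44627 (2.07), Cluster-9242.7841 (2.92) and Cluster-9242.24118 (2.91), gave 2.35 for the untested Cluster-9242.44628, and ended the call of Cluster-9242.7841 against the samples before treatment at 24 h (-4.03). It brought past the threshold Cluster-9242.44627 (1.04) and Cluster-25732.0 (1.42) at 3 h, and Cluster-9242.44627 between unbent stems at 24 and 3 h (0.82). DESeq2 called Cluster-9242.44628 (1.08) and Cluster-9242.44627 (1.05) at 3 h, and gave no adjusted p for Cluster-25732.0 in any bent comparison or for Cluster-9242.24118 at 72 h. Limma-voom called Cluster-25732.0 at 3 h (1.40) and did not call Cluster-9242.24118 against before at 3, 24 and 72 h (-5.16, -5.05 and -5.18) or from 1 to 3 h (-5.00), Cluster-9242.44627 against before at 24 h (-1.75), or Cluster-9242.7841 from 1 to 3 h (-3.21). Log2(FPKM + 0.1) did not call Cluster-9242.24118 at 1 h (2.74), and log2(FPKM + 1) called Cluster-25732.0 at 3 h (0.79). The cause of these changes was not tested.

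Changes of sign fell on values that no test called, most of them near 0. For Cluster-9242.44628 at 24 h the values were 0 with RLE, 0.01 without a filter, 0.01 with the replicate block, 0.06 in limma-voom, and 0.06 and 0.05 on the FPKM scales. For Cluster-25732.0 in unbent stems at 1 h against before they were -0.01 (stricter filter), -0.01 (only the groups compared), -0.21 (limma-voom), -0.10 and -0.01 (FPKM). Cluster-9242.7841 in unbent stems from 3 to 24 h had 0.467 ± 0.805 in edgeR and -0.01 in limma-voom. The count of all clusters called at 24 h, 13 in edgeR, was 132 without a filter, 8 with a stricter one, 21 with the replicate block, 82 with only the groups compared and 54 in DESeq2, and the count at 72 h, 0 in edgeR, was 47, 14 and 7 without a filter, with only the groups compared and in DESeq2. Replicate numbers did not pair the libraries, as same-numbered deviations correlated at -0.03 to 0.06, and the replicate block changed no PHI-1 call.

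With each library left out in turn, no tested PHI-1 difference lost or gained a call. Uncalled values whose sign changed ranged, for Cluster-9242.44628, from -0.17 to 0.34 (24 h), -0.12 to 0.09 (72 h) and -0.25 to 0.26 (unbent 3 to 24 h). The range was -0.08 to 0.31 for Cluster-9242.44627 at 72 h, and -1.42 to 0.26 (24 h) and -0.78 to 0.91 (unbent 3 to 24 h) for Cluster-9242.7841. For Cluster-9242.24118 it was -0.12 to 1.04 (72 h), -0.58 to 1.58 (unbent 3 to 24 h) and -0.56 to 0.04 (before to unbent 1 h). For Cluster-25732.0 it was -0.45 to 0.21 (24 h), -0.66 to 0.47 (72 h), -0.29 to 0.65 (unbent 1 to 3 h), and -0.52 to 0.42, -0.06 to 0.45 and -0.37 to 0.15 (before to unbent 1, 3 and 24 h). The counts over all clusters were 370 to 1083 at 1 h, 1251 to 2839 at 3 h, 0 to 45 at 24 h and 0 to 6 at 72 h for bent against unbent stems, and 2690 to 3852 at 24 h and 3371 to 4644 at 72 h against before. Without replicate 1 of the bent stems at 1 h 370 clusters were called, and without replicate 1 or 2 of the unbent stems 500 or 535, against 1021 with all libraries. At 3 h the count was 1286 without bent replicate 1 and 1251 without unbent replicate 3, against 2689. Depth limits Cluster-9242.24118 and Cluster-25732.0 most, with totals of 1335 and 382 counts over all libraries.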
